A study of Homo sapiens with 12 samples.

Results

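The epithelial-mesenchymal transition was examined through 10 genes across 3 prostate cell lines. They are the intermediate filament gene VIM, the transcription factor genes ZEB1, ZEB2, SNAI1, SNAI2 and TWIST1, and the epithelial genes ESRP1, ESRP2, GRHL2 and OVOL1. The members were taken by gene symbol, and the 10 symbols matched 10 of the 58302 genes in the deposited table, each in 1 row. RNA sequencing was done on 4 libraries each of BPH-1, DU145 and PC3, 12 in all. BPH-1 is a benign prostate epithelial line immortalised with the SV40 large T antigen. DU145 is a prostate cancer line from a brain metastasis, and PC3 is one from a bone metastasis. All 3 are labelled wild type, untreated and from prostate, and all were grown in the same serum-supplemented medium, so a comparison of lines compares the origin and the whole genetic background of each line at once. Each line is a single established line, and nothing in the labels says that its 4 libraries came from separate cultures, so the p-values measure only the spread between these libraries, which may be technical.

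In the epithelial-mesenchymal transition, epithelial cells lose their junctions and gain a motile, spindle-shaped form, and the programme is studied in prostate cancer for its part in invasion and metastasis. The ZEB, SNAI and TWIST proteins bind DNA, mostly at short E-box motifs, and repress epithelial genes such as CDH1, which encodes E-cadherin. GRHL2 and OVOL1 are transcription factors that keep the epithelial state, and ESRP1 and ESRP2 are RNA-binding proteins that set epithelial splicing. ZEB1 and ZEB2 stand in mutual repression with the miRNAs of the miR-200 family and with miR-205. Vimentin, the product of VIM, is the filament protein most used as a marker of the mesenchymal state.

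On GRCh38, as the deposited table gives them, VIM, ZEB1 and OVOL1 lie at chr10:17228259-17237593, chr10:31318495-31529814 and chr11:65787022-65797219 on the plus strand, as do SNAI1 at chr20:49982999-49988886, ESRP1 at chr8:94641074-94707466 and GRHL2 at chr8:101492432-101669726. ZEB2 (chr2:144364364-144524583), TWIST1 (chr7:19020991-19117672), SNAI2 (chr8:48917768-48921740) and ESRP2 (chr16:68229111-68238102) lie on the minus strand. Values are totals over the exons of each gene.

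Depth was between 12950664 and 16309559 reads per library. The values were fragments per kilobase of gene length and per unit of library depth (FPKM), whose sums were 246960 ± 2986 in BPH-1, 293757 ± 5858 in DU145 and 298496 ± 5975 in PC3 (SD, n = 4). The gene length behind each FPKM summed all distinct exons of a gene, 9896 bases for VIM and 51696 bases for ZEB2, so levels are compared between lines for 1 gene and not between genes. The libraries differed in how FPKM followed the GC content of genes. The change of log2 FPKM per 10% GC, relative to the mean of the libraries over 12429 genes, was between -0.74 and -0.61 in BPH-1 and between -0.02 and 0.72 in PC3. In DU145 it was 0.70 and 1.06 in replicates 1 and 3 and -0.18 and -0.003 in replicates 2 and 4. BPH-1 therefore stood apart from both cancer lines in this trend, and differences with the trend divided out are given below for the members.

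The labels were checked against cell type markers. KRT8 and KRT18, keratins of simple epithelia, were present in all 12 libraries, with mean FPKM of 31.1 and 35.8 in BPH-1, 19.7 and 69.0 in DU145 and 23.0 and 29.5 in PC3. EPCAM, an epithelial adhesion protein, had a mean FPKM of 60.8 ± 2.28 in BPH-1, 9.10 ± 1.81 in PC3 and 0.376 ± 0.168 in DU145 (SD, n = 4). CDH1 had 28.4 ± 12.2 in BPH-1, 0.786 ± 0.440 in PC3 and 0.180 ± 0.0936 in DU145. EPCAM and CDH1, defining epithelial markers, were thus near 0 in the libraries labelled DU145, whose identity was not tested further and which are named here by their label. The basal markers KRT5, KRT14 and TP63 summed to between 298 and 427 FPKM in BPH-1 libraries and to less than 1 in every other library. Of the luminal markers, KLK3 was listed at 0 in all lines. The 5 fibroblast markers summed to between 1.73 and 3.42 FPKM in BPH-1, 0.419 and 1.17 in DU145 and 3.96 and 7.13 in PC3. Of these, DCN was at 0 in BPH-1 and in PC3, and LUM was at 0 in PC3. COL1A1 had a mean FPKM of 2.44 in BPH-1, 0.438 in DU145 and 3.51 in PC3. PDGFRA had 8 reads over BPH-1, 22 over DU145 and 1267 over PC3. The 3 endothelial markers summed to between 0.231 and 0.615, 0.0548 and 0.350 and 1.19 and 2.28 FPKM in the same order. The 3 leukocyte markers summed to between 4.83 and 8.11, 5.06 and 9.95 and 6.86 and 13.5 FPKM. CD3E was at 0 in each line, CD68 had a mean of 4.71, 6.17 and 10.9, and PTPRC, the leukocyte antigen CD45, set some libraries apart.

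PTPRC had 206, 224, 194 and 171 reads in BPH-1, 209, 194, 0 and 0 in DU145 and none in PC3. A search made after these values were seen found 19 genes with 30 reads or more in DU145 replicates 1 and 2 and none in replicates 3 and 4, against 0 to 4 genes in every other such split of a line. All 19 were read in each BPH-1 library, and 11 had no read in PC3. LYZ, FCGR3B and MNDA, genes of myeloid blood cells, were among them, with 326 and 365, 244 and 269, and 207 and 238 reads in DU145 replicates 1 and 2. LYZ had between 308 and 400 reads in BPH-1 and 1 and 6 in PC3. The basal keratin KRT5 had 45, 66, 3 and 0 reads in DU145, against 14887 or more in each BPH-1 library. Transcripts of leukocytes were thus read in all of BPH-1 and in 2 DU145 libraries, and in the PC3 against BPH-1 comparison they cannot be told apart from the line. The comparisons with DU145 were therefore also run with replicates 1 and 2 only and with 3 and 4 only. Of the members, 9 and 8 were called against BPH-1, where 9497 of 17909 and 9818 of 17907 genes tested were. In PC3 against DU145, 4 and 4 members were called, where 6964 of 16997 and 6372 of 16852 genes tested were. With this many genes called, these counts are not read as a result about the members.

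Differences were tested with limma on log2(FPKM + 1), with Benjamini-Hochberg adjustment over all genes tested, and a gene was called at an adjusted p under 0.05. In PC3 against BPH-1, 8 of the 10 members were called, against 67.6% of the 16346 genes tested. VIM, SNAI1, TWIST1 and ZEB1 were higher in PC3, where 27.2% of all genes were called higher, and GRHL2, ESRP1, SNAI2 and OVOL1 were lower, where 40.5% of all genes were. In DU145 against BPH-1, 9 of the 10 members were called, against 62.6% of 17072 genes. VIM, SNAI1 and ZEB1 were higher in DU145 (30.3% of all genes), and GRHL2, SNAI2, ESRP1, OVOL1, TWIST1 and ESRP2 were lower (32.3% of all genes). In PC3 against DU145, 8 members had enough reads to be tested and 4 were called, against 48.2% of 16209 genes. TWIST1, ESRP2 and VIM were higher in PC3 (20% of all genes) and ESRP1 was lower (28.3% of all genes). With this many genes called, these counts are not read as a result about the members. Against BPH-1, GRHL2, OVOL1 and ZEB2 passed the filter on low reads through BPH-1 alone, as did TWIST1 in DU145 and ESRP1 in PC3, and ZEB1 and SNAI1 passed it through the cancer lines alone. Between the cancer lines, TWIST1 passed it through PC3 alone and ESRP1 through DU145 alone. Where a member passed through 1 side alone, the filter itself favoured a difference, so its p there is not read as support. Some gene lists below also include genes that passed in this way, so their counts and medians are partly set by the filter. The 2 comparisons against BPH-1 share the BPH-1 libraries.

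**Figure D1:**
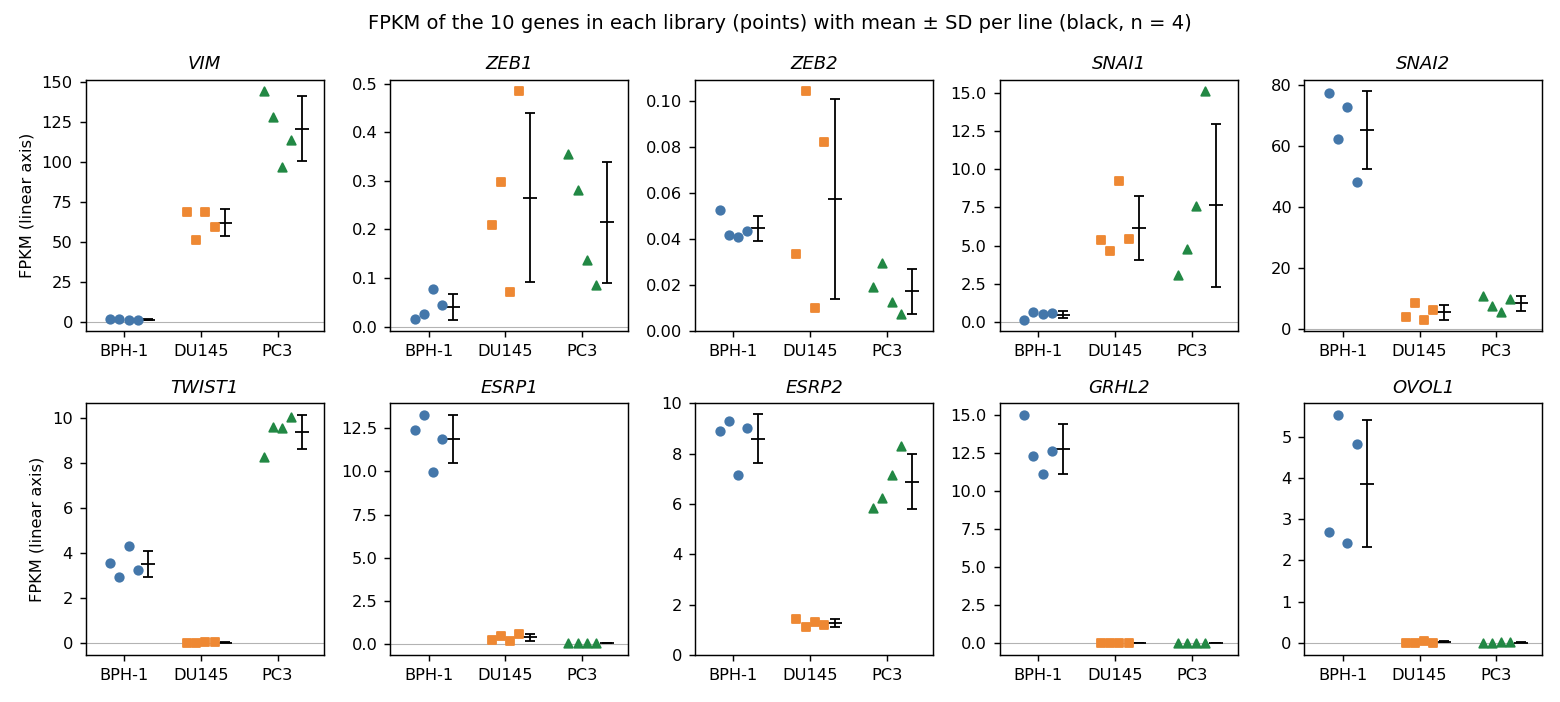
FPKM (linear y axis) of the 10 genes in each library of BPH-1 (circles), DU145 (squares) and PC3 (triangles), with the mean and SD of each line in black (n = 4). VIM sat between 1.11 and 1.32 in BPH-1 and at 51.4 or more in every library of the cancer lines, whereas GRHL2 and OVOL1 were near 0 in all 8 cancer libraries.

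**Figure D2:**
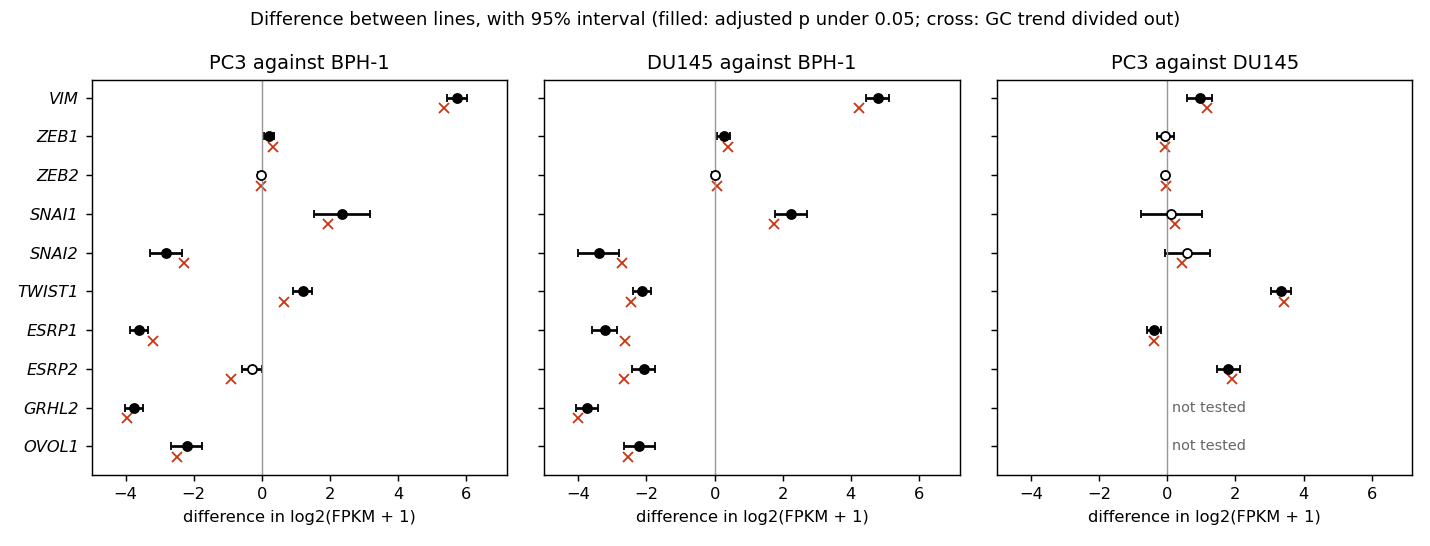
Difference in log2(FPKM + 1) between lines for each gene (x axis), with its 95% interval and filled where the adjusted p was under 0.05, and crosses for the same difference after each library's GC trend was divided out. VIM had the largest rise in both cancer lines, TWIST1 was higher in PC3 and lower in DU145, and ESRP2 in PC3 moved from an uncalled -0.29 to -0.90 with the GC trend divided out.

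VIM was the member with the largest rise in both cancer lines. Its FPKM was 1.32, 1.32, 1.11 and 1.24 in BPH-1. It was 68.4, 51.4, 68.9 and 59.0 in DU145, and 144, 128, 96.8 and 114 in PC3. The 3 lines did not overlap, and each BPH-1 library held between 171 and 201 reads of the gene. Leukocytes are known to express VIM, and the part of leukocyte transcripts in the BPH-1 level was not tested. Mean FPKM was 1.25 ± 0.0964 in BPH-1, 61.9 ± 8.37 in DU145 and 121 ± 20.2 in PC3 (SD, n = 4), which is 49.6-fold and 96.8-fold over BPH-1. The log2 difference was 4.80 ± 0.15 (SE, limma adjusted p = 3.5e-08) in DU145 and 5.75 ± 0.13 (adjusted p = 4.65e-09) in PC3. With each library's GC trend divided out, these differences were 4.25 and 5.35. Against BPH-1, DU145 replicates 1 and 2 alone gave 4.75 and replicates 3 and 4 alone 4.85. PC3 was 1.95-fold over DU145 (log2 difference 0.95 ± 0.16, adjusted p = 0.00118). VIM overlaps the antisense gene VIM-AS1 over 1727 bases of the gene spans, introns included. How much of this lies in exons was not computed. VIM-AS1 had a mean FPKM of 0.277 in BPH-1, 1.22 in DU145 and 1.31 in PC3. Whether the counting used strand is not given in the sources used here, and without strand the reads of both genes in the overlap cannot be told apart.

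Vimentin belongs to the type III intermediate filaments, and 9 other genes of types III and IV were fixed for comparison. In PC3 against BPH-1, 4 of the 6 tested were higher and 2 lower, where 27.2% and 40.5% of all genes were, with a median log2 difference of 0.68 against -0.13 over all genes. In DU145 against BPH-1, 2 were higher, 3 lower and 1 was not called, where 30.3% and 32.3% of all genes were higher and lower (median -0.64 against -0.03). PRPH and SYNM rose in both lines. NES, which encodes nestin, had a mean FPKM of 142 ± 9.06 in PC3 against 4.54 ± 1.45 in BPH-1 (log2 difference 4.73 ± 0.18, adjusted p = 6.01e-08), and 3.67 ± 0.487 in DU145 (-0.21, adjusted p = 0.393 against BPH-1). With the GC trend divided out, NES was called lower in DU145 (-0.88, adjusted p = 0.00665). The neurofilament gene NEFL was 37.0 ± 7.90 in PC3, 8.32 ± 2.75 in BPH-1 and 1.49 ± 0.197 in DU145, so it moved in opposite directions in the 2 cancer lines (2.06 and -1.85 on the log2 scale). INA, for alpha-internexin, fell from 27.4 ± 3.71 in BPH-1 to 0.0495 ± 0.0474 in DU145 and 0 in PC3, at least 1578-fold lower in PC3 with 3 reads over the line as the limit. NEFM fell from 1.48 ± 0.379 to 0.171 ± 0.0758 in DU145 and 0.00296 ± 0.00592 in PC3.

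ZEB1 and ZEB2 encode related zinc-finger homeobox repressors, and both were read at a low level in every line. ZEB1 had 5, 8, 24 and 14 reads in the BPH-1 libraries, 68, 97, 22 and 130 in DU145, and 92, 77, 38 and 22 in PC3. In FPKM these were 0.0162, 0.0262, 0.0773 and 0.0448 in BPH-1, 0.210, 0.297, 0.0713 and 0.484 in DU145, and 0.355, 0.281, 0.137 and 0.0849 in PC3. PC3 did not overlap BPH-1, whereas DU145 replicate 3 lay below BPH-1 replicate 3. The mean was 6.46-fold over BPH-1 in DU145 and 5.21-fold in PC3. On the log2(FPKM + 1) scale, which understates the change of genes this low, the differences were 0.27 ± 0.09 (limma adjusted p = 0.0190) and 0.22 ± 0.07 (adjusted p = 0.0182). For DU145 the exact two-sided permutation test gave p = 0.0571, where 0.0286 is the smallest p that 4 against 4 libraries allow, and for PC3 1 fit over all 3 lines gave an adjusted p of 0.0582. With DU145 replicates 3 and 4 only, the difference from BPH-1 was 0.28 and not called (adjusted p = 0.0744). With the GC trend divided out, the differences were 0.40 (adjusted p = 0.00116) and 0.32 (adjusted p = 0.000951). ZEB1 passed the filter on low reads through the cancer lines alone, so its p-values against BPH-1 are not read as support. PC3 and DU145 overlapped and did not pass the test (-0.06 ± 0.11, adjusted p = 0.705). Part of ZEB1 overlaps SPTLC1P1 on the same strand over 261 bases and ZEB1-AS1 on the other over 1953 bases, and SPTLC1P1 had a mean FPKM of 4.71 in BPH-1, 4.99 in DU145 and 2.84 in PC3.

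ZEB2 had between 33 and 42 reads in BPH-1, 8 and 88 in DU145 and 5 and 21 in PC3. Mean FPKM was 0.0448 ± 0.00537, 0.0575 ± 0.0434 and 0.0173 ± 0.00959 (SD, n = 4). PC3 lay below BPH-1 in every library, and DU145 overlapped both other lines. ZEB2 was not called in any of the 3 comparisons (limma adjusted p = 0.231, 0.723 and 0.263). The lower level in PC3 than in BPH-1 was called with a pseudocount of 0.1 (log2 difference -0.31, adjusted p = 0.0274) and by voom on the recovered reads (-1.49, adjusted p = 0.00535), and the exact two-sided permutation test on log2(FPKM + 1) gave p = 0.0286, the smallest it can give, without adjustment. With the GC trend divided out, it was -0.01 (adjusted p = 0.722) in PC3 and 0.06 (adjusted p = 0.165) in DU145 against BPH-1. ZEB2 passed the filter on low reads through BPH-1 alone in both, so its p-values against BPH-1 are not read as support. Leukocytes also express ZEB2, and their part in its BPH-1 level was not tested.

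The ZEB transcripts hold many sites for the miR-200 family, whose sequences are shown with that of miR-205 because the hosts of miR-200c, miR-141 and miR-205 could be measured here. From RefSeq (GRCh38.p14), the mature miRNAs are given 5′ to 3′ with the seed, bases 2 to 8, in capitals. The first 3 share 1 seed and the next 2 share another.
hsa-miR-200b-3p: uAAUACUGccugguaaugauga
hsa-miR-200c-3p: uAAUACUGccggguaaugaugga
hsa-miR-429: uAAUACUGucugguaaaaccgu
hsa-miR-200a-3p: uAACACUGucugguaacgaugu
hsa-miR-141-3p: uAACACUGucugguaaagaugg
hsa-miR-205-5p: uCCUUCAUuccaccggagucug

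The longest annotated 3′ UTR of ZEB1 in GENCODE 29 (2549 bases) holds 6 copies of CAGTATT, the complement of the first seed, and that of ZEB2 (5370 bases) holds 5. Of 19102 genes with a 3′ UTR, 16% hold at least 1 copy in their longest one, 3 hold 6 or more and 7 hold 5 or more. The complement of the second seed, CAGTGTT, occurs 3 times in ZEB1 and 4 times in ZEB2, against at least 1 copy in 18.2% of genes. The complement of the miR-205-5p seed, ATGAAGG, occurs once in ZEB1. The 3′ UTR of SNAI2 holds 1 copy of CAGTATT and neither of the other matches, and none of the 3 was found in those of SNAI1, TWIST1 and VIM. A copy is a match of letters and is not evidence of a site that works. The sites below, read 5′ to 3′ on the strand of each gene, show the match in capitals at the 3′ end and the 15 bases before it, with coordinates on GRCh38.
ZEB1, chr10:31527618-31527639: attgttttatcttatCAGTATT
ZEB1, chr10:31527712-31527733: atgctaaatccgcttCAGTATT
ZEB2, chr2:144389053-144389074: cgcactaccatacatCAGTATT
ZEB2, chr2:144388990-144389011: cgcactacaatgcatCAGTATT

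MIR200CHG, the transcript that hosts miR-200c and miR-141, had reads in the BPH-1 libraries and in no other. Its FPKM was 3.34, 4.12, 4.6 and 5.49 in BPH-1, from 18, 22, 25 and 30 reads, and it had no read in the 8 libraries of DU145 and PC3. With 3 reads over a line as the limit, it was at least 31.4-fold lower in DU145 and 27.4-fold lower in PC3. MIR205HG, the host of miR-205, had 1046, 716, 770 and 668 reads in BPH-1, 5, 6, 0 and 0 in DU145 and none in PC3. It was 289-fold lower in DU145 by pooled reads (exact 95% interval 161 to 579) and at least 923-fold lower in PC3. Both hosts passed the filter on low reads through BPH-1 alone, so no p is given for them. These intervals and limits cover counting error only, and a host transcript is not a measurement of the mature miRNA.

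**Figure D3:**
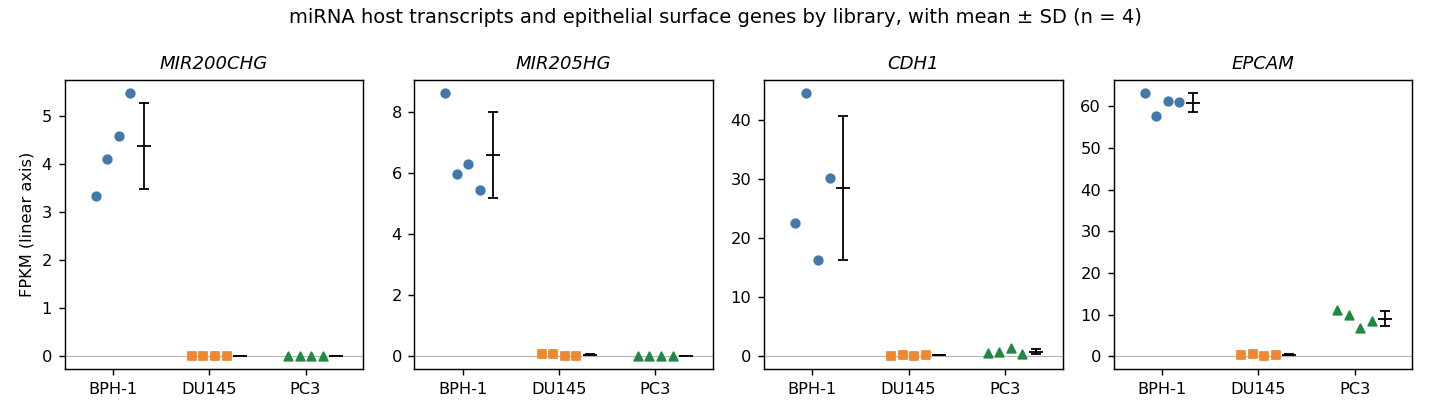
FPKM (linear y axis) of MIR200CHG, MIR205HG, CDH1 and EPCAM in each library of BPH-1, DU145 and PC3, with the mean and SD of each line in black (n = 4). Both miRNA hosts were at or near 0 in the 8 cancer libraries, and EPCAM kept a mean of 9.10 in PC3 against 0.376 in DU145.

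E-boxes of the kind bound by ZEB and SNAI proteins, CACCTG and its complement CAGGTG, were counted on both strands in RefSeq promoters (GRCh38.p14), from 250 bases before to 50 after each start. Of the promoters in the table, 20.6% of 35116 hold at least 1, and 24.1% of 27305 genes do in at least 1 promoter. Among epithelial adhesion and membrane genes, 17 of the 29 fixed genes matched and 13 of them hold one (76.5%), CLDN7, CDS1, RAB25, DSP and OCLN among them. Among the 14 other transcription factors of the transition, 10 matched and none does. Between these lay the other epithelial transcription and splicing factors, with 6 of the 12 matched (50%). The mesenchymal adhesion, matrix and cytoskeleton genes had 3 of 16 (18.8%). Of the members, VIM, ZEB1 and ZEB2 matched. VIM and ZEB2 have none in these windows, and 2 of the 7 ZEB1 promoters do. The MIR200CHG promoter has 1, at 78 bases before the start, and a ZEB1 promoter has 3, at 242 and 85 bases before and 33 after it. Both are shown 5′ to 3′ on the plus strand with E-boxes in capitals, since the mutual repression named above is between ZEB1 and the miR-200 family. An E-box here is a match of letters and is not evidence of binding or of a part in that repression.
MIR200CHG, chr12:6962995-6963294: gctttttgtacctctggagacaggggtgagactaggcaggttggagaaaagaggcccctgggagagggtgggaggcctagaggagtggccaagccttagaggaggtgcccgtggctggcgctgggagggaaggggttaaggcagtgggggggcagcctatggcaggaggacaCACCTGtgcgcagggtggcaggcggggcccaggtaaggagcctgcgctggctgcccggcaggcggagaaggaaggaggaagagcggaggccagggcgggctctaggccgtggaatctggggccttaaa
ZEB1, chr10:31318966-31319265: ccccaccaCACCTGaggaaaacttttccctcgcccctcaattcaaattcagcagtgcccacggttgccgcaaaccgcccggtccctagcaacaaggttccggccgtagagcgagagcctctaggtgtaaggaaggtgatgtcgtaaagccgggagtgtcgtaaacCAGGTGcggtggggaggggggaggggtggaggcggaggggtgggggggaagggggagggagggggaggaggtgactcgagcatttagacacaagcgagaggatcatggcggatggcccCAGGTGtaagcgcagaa

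SNAI1, SNAI2 and TWIST1 moved in 3 different ways. SNAI1 encodes Snail, a zinc-finger repressor of CDH1. Its FPKM was 0.154, 0.661, 0.535 and 0.608 in BPH-1, from 4 to 17 reads a library. It was 5.34, 4.65, 9.22 and 5.44 in DU145 and 3.07, 4.76, 7.61 and 15.1 in PC3. Neither cancer line overlapped BPH-1, while they overlapped each other. The mean was 12.6-fold over BPH-1 in DU145 (log2 difference 2.24 ± 0.21) and 15.6-fold in PC3 (2.36 ± 0.37). Against BPH-1, SNAI1 passed the filter on low reads through the cancer lines alone, so no p is given there. PC3 and DU145 did not pass the test (0.12 ± 0.40, 95% interval -0.78 to 1.01, limma adjusted p = 0.834). The sign of this difference turned without PC3 replicate 4 (-0.25). SNAI1 has a GC content of 58.2%, and the differences from BPH-1 were 1.75 and 1.93 with each library's GC trend divided out.

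SNAI2 encodes Slug, a relative of Snail that is also made in basal epithelial cells. It was highest in BPH-1, with FPKM of 77.3, 62.5, 72.8 and 48.4, against 4.07, 8.49, 3.15 and 6.28 in DU145 and 11, 7.61, 5.58 and 9.90 in PC3. BPH-1 did not overlap either cancer line. The mean was 11.9-fold lower in DU145 (log2 difference -3.40 ± 0.27, limma adjusted p = 4.89e-06) and 7.67-fold lower in PC3 (-2.82 ± 0.21, adjusted p = 3.47e-06). The basal markers KRT5, KRT14 and TP63 were lower in both cancer lines too, and their part in the SNAI2 result was not tested. The gene has a GC content of 43.4%, and with the GC trend divided out the differences were -2.71 and -2.28. PC3 and DU145 overlapped and did not pass the test (0.59 ± 0.29, adjusted p = 0.129), though without DU145 replicate 2 they did (0.79, adjusted p = 0.0407).

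TWIST1 encodes a basic helix-loop-helix factor, and it separated the 2 cancer lines. Its FPKM was 3.56, 2.97, 4.33 and 3.26 in BPH-1 and 8.30, 9.63, 9.57 and 10.1 in PC3, with 124 reads or more in each of these libraries. DU145 had 0, 0, 2 and 2 reads. None of the lines overlapped another. PC3 was 2.66-fold over BPH-1 (log2 difference 1.2 ± 0.12, limma adjusted p = 2.49e-05), and 0.66 on the log2 scale with the GC trend divided out (56.9% GC, adjusted p = 0.00316). DU145 lay below BPH-1 by a pooled read ratio of 148 (exact 95% interval 57.6 to 546, log2 difference -2.13 ± 0.12). It lay below PC3 by 394 (154 to 1450), and the log2 difference of PC3 against DU145 was 3.34 ± 0.13. Both intervals cover counting error only and not the spread between libraries. In both comparisons with DU145, TWIST1 passed the filter on low reads through the other line alone, so no p is given there.

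The 14 other transcription factors of the transition did not move as 1 group. In PC3 against BPH-1, 2 of the 11 tested were higher, 6 were lower and 3 were not called, where 27.2% and 40.5% of all genes were higher and lower. The median log2 difference was -0.50 against -0.13 over all genes tested. In DU145 against BPH-1, 3 of 13 were higher and 7 lower (median -0.39 against -0.03), where 30.3% and 32.3% of all genes were. TWIST2, the paralog of TWIST1, had the opposite order between the cancer lines, with 1.14 ± 0.247 in PC3, 7.61 ± 2.14 in DU145 and 8.11 ± 2.1 FPKM in BPH-1 (PC3 against DU145 -1.98 ± 0.21, adjusted p = 5.76e-05). PRRX2, a homeobox gene, had 17.9 ± 5.64 in DU145, 2.29 ± 1.24 in BPH-1 and 0.578 ± 0.243 in PC3. SOX9 was highest in PC3, with 50.7 ± 5.62 against 7.73 ± 1.87 in BPH-1 and 5.42 ± 0.822 in DU145. HMGA2, a chromatin protein gene, fell from 8.62 ± 3.14 in BPH-1 to 4.03 ± 1.16 in PC3 and 0.115 ± 0.0429 in DU145. In PC3 against DU145, 5 of the 10 tested were higher and 3 lower, where 20% and 28.3% of all genes were. The lower count was near its share and is not read as a result about the list. Without PC3 replicate 3 or with DU145 replicates 3 and 4 only, 3 were higher.

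ESRP1 and ESRP2, close paralogs that bind RNA and favour epithelial exons, parted in PC3. ESRP1 had FPKM of 12.4, 13.3, 10.0 and 11.9 in BPH-1, 0.260, 0.477, 0.188 and 0.608 in DU145, and 0.0362, 0.0479, 0.0676 and 0.0507 in PC3. The lines did not overlap, and PC3 held 5 to 10 reads a library. The mean was 31.0-fold lower in DU145 than in BPH-1 (log2 difference -3.22 ± 0.17, limma adjusted p = 4.22e-07) and 235-fold lower in PC3 (-3.61 ± 0.11). These differences were -2.62 and -3.21 with the GC trend divided out. PC3 was 7.58-fold below DU145 in FPKM (-0.39 ± 0.09), a difference that the pseudocount of 1 compresses at this level. With a pseudocount of 0.1 it was -1.60. In both comparisons with PC3, ESRP1 passed the filter on low reads through the other line alone, so no p is given there.

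ESRP2 had FPKM of 8.89, 9.32, 7.17 and 9.04 in BPH-1, 1.44, 1.10, 1.31 and 1.18 in DU145, and 5.84, 6.23, 7.16 and 8.32 in PC3. DU145 lay apart from both other lines, which overlapped each other. The mean in DU145 was 6.83-fold below BPH-1 (log2 difference -2.08 ± 0.15, limma adjusted p = 2.81e-06, and -2.66 with the GC trend divided out), and PC3 was 5.47-fold over DU145 (1.8 ± 0.15, adjusted p = 1.59e-05). PC3 against BPH-1 did not pass the test (-0.29 ± 0.13, 95% interval -0.59 to 0.01, adjusted p = 0.0814). That call depended on the processing. It was -0.90 with the GC trend divided out (adjusted p = 4.26e-05, 58.0% GC) and -0.53 with FPKM rescaled to the same sum in each library (adjusted p = 0.00552), and it also passed without BPH-1 replicate 3 (-0.36) or without PC3 replicate 4 (-0.37). Under each of these the direction was the same. ESRP2 overlaps NFATC3 on the opposite strand over 149 bases.

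The list of 6 genes whose splicing the ESRP proteins are known to set can be read here only for total level, since the deposited values are per gene and not per exon. FGFR2 had a mean FPKM of 1.11 ± 0.152 in BPH-1, 0.0642 ± 0.0144 in DU145 and 1 read in all of PC3. CD44, a surface receptor for hyaluronan, fell from 30.9 ± 1.74 in BPH-1 to 10.8 ± 4.12 in DU145 and 9.58 ± 0.918 in PC3 (adjusted p = 0.000455 and 1.3e-06). ENAH, an actin regulator, was 12.4 ± 1.16, 8.29 ± 4.83 and 4.07 ± 1.56, and PC3 was called lower than BPH-1 (-1.46 ± 0.21, adjusted p = 0.00023) while DU145 was not (adjusted p = 0.104). SCRIB, a polarity gene, rose from 8.43 ± 0.664 to 22.7 ± 5.38 in DU145 and 33.5 ± 3.67 in PC3, and its log2 differences of 1.30 and 1.87 became 0.43 and 0.92 with the GC trend divided out.

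GRHL2 and OVOL1 were read in BPH-1 and nearly absent from both cancer lines. GRHL2, a grainyhead-like factor, had FPKM of 15, 12.3, 11.1 and 12.6 in BPH-1. DU145 had 4, 3, 0 and 0 reads, in the same 2 libraries as PTPRC, and PC3 2, 2, 4 and 0, against 1260 to 1689 in each BPH-1 library. By pooled reads, BPH-1 was 817-fold over DU145 (exact 95% interval 396 to 2033) and 623-fold over PC3 (316 to 1444). The log2 differences from BPH-1 were -3.75 ± 0.15 and -3.74 ± 0.12 (SE). OVOL1, a zinc-finger factor, had FPKM of 2.69, 5.53, 2.43 and 4.82 in BPH-1, from 195 to 437 reads, and a total of 4 reads in DU145 and 3 in PC3. The pooled read ratio was 307 (120 to 1128) and 356 (122 to 1731), and the log2 difference was -2.21 in both cancer lines, with SE of 0.21 and 0.20. The intervals of both genes cover counting error only and not the spread between libraries. All 4 OVOL1 reads in DU145 came from replicate 3. Both genes passed the filter on low reads through BPH-1 alone, so no p is given for them. With the GC trend divided out, GRHL2 differed from BPH-1 by -4.00 in DU145 and -3.95 in PC3 and OVOL1 by -2.55 and -2.50. GRHL2 and OVOL1 had too few reads to be tested between PC3 and DU145.

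Other epithelial transcription and splicing factors were mostly lower in the cancer lines as well. In PC3 against BPH-1, 1 of the 12 tested was higher and 8 were lower (median -0.99 against -0.13 over all genes), where 27.2% and 40.5% of all genes were. In DU145 against BPH-1, 2 were higher and 9 lower (median -1.14 against -0.03), where 30.3% and 32.3% of all genes were. Without BPH-1 replicate 1 or DU145 replicate 1, 1 was higher in DU145. Among the genes lower in both were OVOL2, GRHL1, GRHL3, EHF, KLF5, TP63 and RBM47, and KLF5 in PC3 was not called in 1 fit over all 3 lines (adjusted p = 0.0658). TP63, the basal cell factor p63, fell from 12.9 ± 1.18 FPKM in BPH-1 to 0.0286 ± 0.0252 in DU145 and 0.00876 ± 0.0112 in PC3. With 23 reads over DU145 and 6 over PC3, TP63 passed the filter on low reads through BPH-1 alone. So did GRHL3 against PC3, which had 5 reads over the line. For such genes the filter itself favoured a lower call, so these counts are not read as support. EHF, an ETS factor, fell from 13.9 ± 3.45 to 0.0849 ± 0.0852 and 1.57 ± 0.869. FOXA1, a luminal pioneer factor, went the other way, from 1.51 ± 0.997 to 6.33 ± 1.25 in DU145 (1.61 ± 0.27, adjusted p = 0.000515) and 36.0 ± 3.12 in PC3 (3.96 ± 0.24, adjusted p = 9.13e-07). In PC3 against DU145, 6 of 11 were higher and 1 lower, where 20% and 28.3% of all genes were. With DU145 replicates 1 and 2 only, 3 were higher, and 2 were lower without DU145 replicate 2, DU145 replicate 3 or PC3 replicate 4.

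The 29 epithelial adhesion and membrane genes include known targets of the repressors above. In PC3 against BPH-1, 19 were lower and 4 higher, where 40.5% and 27.2% of all genes were (median log2 difference -1.82 against -0.13). In DU145 against BPH-1, 18 were lower and 2 higher, where 32.3% and 30.3% of all genes were (median -2.23 against -0.03). Both medians were the same to 2 decimals with genes listed at 0 in a line set to the 3-read limit. Only 1 of the 29 genes was so listed in each comparison and can move a median little, so this is no check of the medians. In PC3 against BPH-1, AP1M2, with no read in PC3, and MARVELD3, with 8 over the line, passed the filter on low reads through BPH-1 alone. The counts are thus partly set by the filter. DSP, for the desmosomal protein desmoplakin, fell from 133 ± 29.3 FPKM in BPH-1 to 3.05 ± 2.6 in DU145 and 6.09 ± 3 in PC3. MAL2, a membrane trafficking protein gene, had 131 ± 49.1 in BPH-1 and 115 ± 51.4 in PC3 (adjusted p = 0.556) and 0.201 ± 0.0694 in DU145. EPCAM likewise was higher in PC3 than in DU145 (2.87 ± 0.18, adjusted p = 2.87e-06). Between the cancer lines, 10 of the 26 tested were higher in PC3 and 3 lower (median 0.45 against -0.05), where 20% and 28.3% of all genes were.

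The 26 mesenchymal adhesion, matrix and cytoskeleton genes were called in both directions. In PC3 against BPH-1, 8 of the 21 tested were higher and 9 lower (median -0.14 against -0.13 over all genes), where 27.2% and 40.5% of all genes were, and in DU145 against BPH-1, 7 of 22 were higher and 12 lower (median -0.32 against -0.03), where 30.3% and 32.3% were. The lower count in PC3 and the higher count in DU145 were near these shares and are not read as a result about the list. Both higher counts depended on GC, at 6 and 4 with the trend divided out. COL6A1, TPM2, S100A4 and LGALS1 rose in both cancer lines, as VIM did, and among those that fell in both were FN1, SPARC, COL5A1, VCAN, LOX and MMP2. Of these, TPM2 in PC3 was 0.40 and not called with FPKM rescaled to the same sum (0.21, adjusted p = 0.274) and turned to -0.09 with the GC trend divided out (adjusted p = 0.610), and LOX in DU145 was -0.03 with it (adjusted p = 0.892). COL6A1, a collagen VI chain, had 366 ± 26.1 FPKM in PC3, 29.7 ± 6.35 in DU145 and 4.76 ± 1.71 in BPH-1. SPARC, a matrix glycoprotein, had 72.2 ± 12.1 in BPH-1 against 0.268 ± 0.0288 in DU145 and 0.202 ± 0.0778 in PC3. FN1, for fibronectin, had 79.5 ± 39.6 in BPH-1, 0.767 ± 0.240 in DU145 and 8.60 ± 1.90 in PC3. TGFBI, for a matrix protein induced by TGF-beta, had 44.5 ± 5.83 in DU145, 24.2 ± 5.03 in BPH-1 and 0.101 ± 0.0347 in PC3, and its rise in DU145 (0.87 ± 0.19, adjusted p = 0.00257) was not called with the GC trend divided out (0.25, adjusted p = 0.223). CDH2, which encodes N-cadherin and was chosen after its values were seen, had 32.4 ± 4.45 in PC3, 5.10 ± 1.28 in BPH-1 and 0.0489 ± 0.0265 in DU145.

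**Figure D4:**
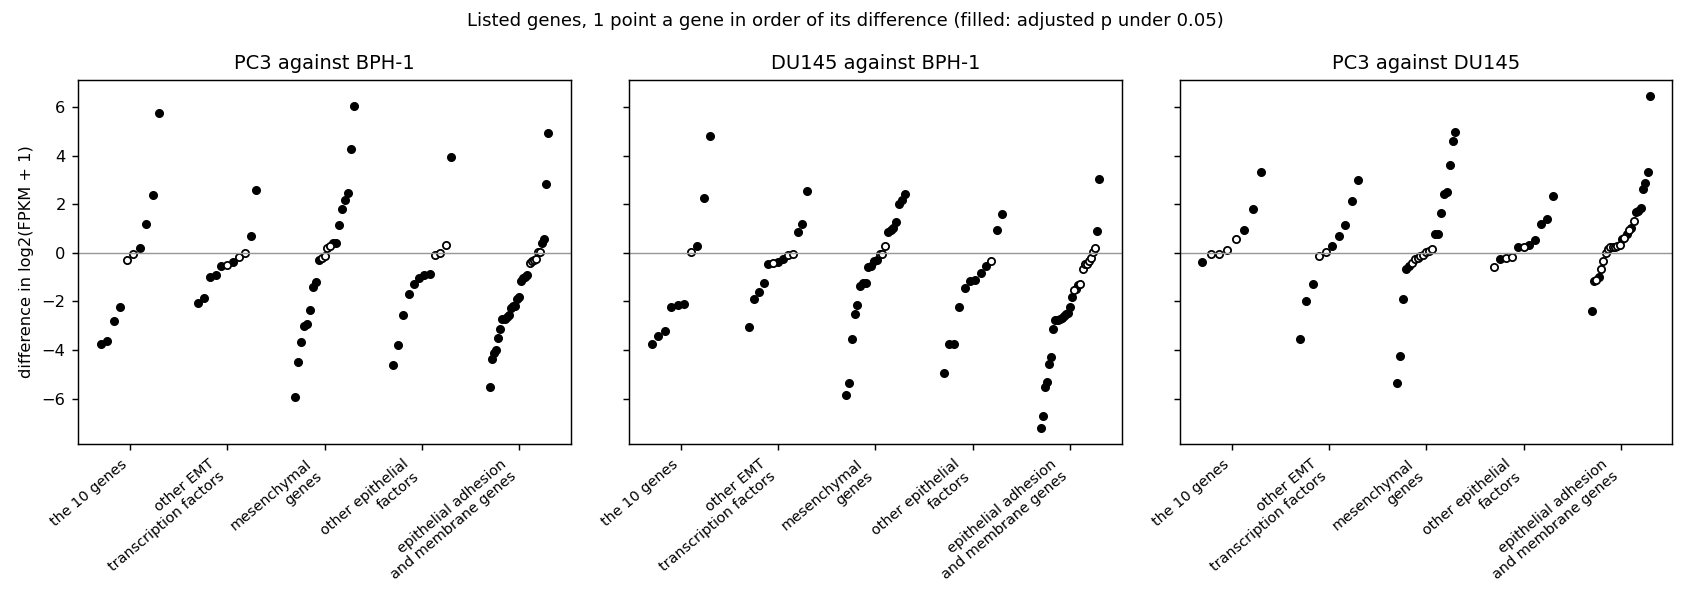
Difference in log2(FPKM + 1) between lines (y axis) for the 10 genes and for 4 fixed lists, 1 point a gene, ordered within each list and filled where the adjusted p was under 0.05. The epithelial lists lie mostly below 0 against BPH-1, with medians of -1.82 and -2.23 for adhesion genes, while mesenchymal genes spread to both sides.

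Within a line, several members varied between libraries along with the GC trend. In PC3 the highest SNAI1 level (15.1) and the lowest ZEB1 level (0.0849) were both in replicate 4, the library with the highest trend (0.72), and the lowest SNAI1 (3.07) and highest ZEB1 (0.355) levels were in replicate 1, with the lowest trend (-0.02). In DU145 replicate 3, with the highest trend of all (1.06), SNAI1 was highest (9.22) and ZEB1, ZEB2, SNAI2 and ESRP1 were lowest. SNAI1 and ESRP2 have a GC content of 58.2% and 58.0%, and ZEB1, ZEB2, ESRP1 and SNAI2 a lower one (41.4%, 41.5%, 42.4% and 43.4%). With the trend divided out, the ratio of the highest to the lowest library of DU145 went from 6.80 to 2.78 for ZEB1, from 10.4 to 3.88 for ZEB2, from 2.70 to 1.27 for SNAI2 and from 3.23 to 1.43 for ESRP1. In PC3 the ratio for SNAI1 went from 4.92 to 3.24, and that for ESRP2 from 1.42 to 1.11. It went up rather than down for SNAI2, ESRP1 and TWIST1 in PC3, from 1.96 to 2.36, from 1.87 to 2.38 and from 1.21 to 1.41, and for ESRP2 in DU145, from 1.31 to 1.78. For VIM, at 52.7% GC, the ratio in PC3 was 1.49 before and 1.8 after.

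**Figure D5:**
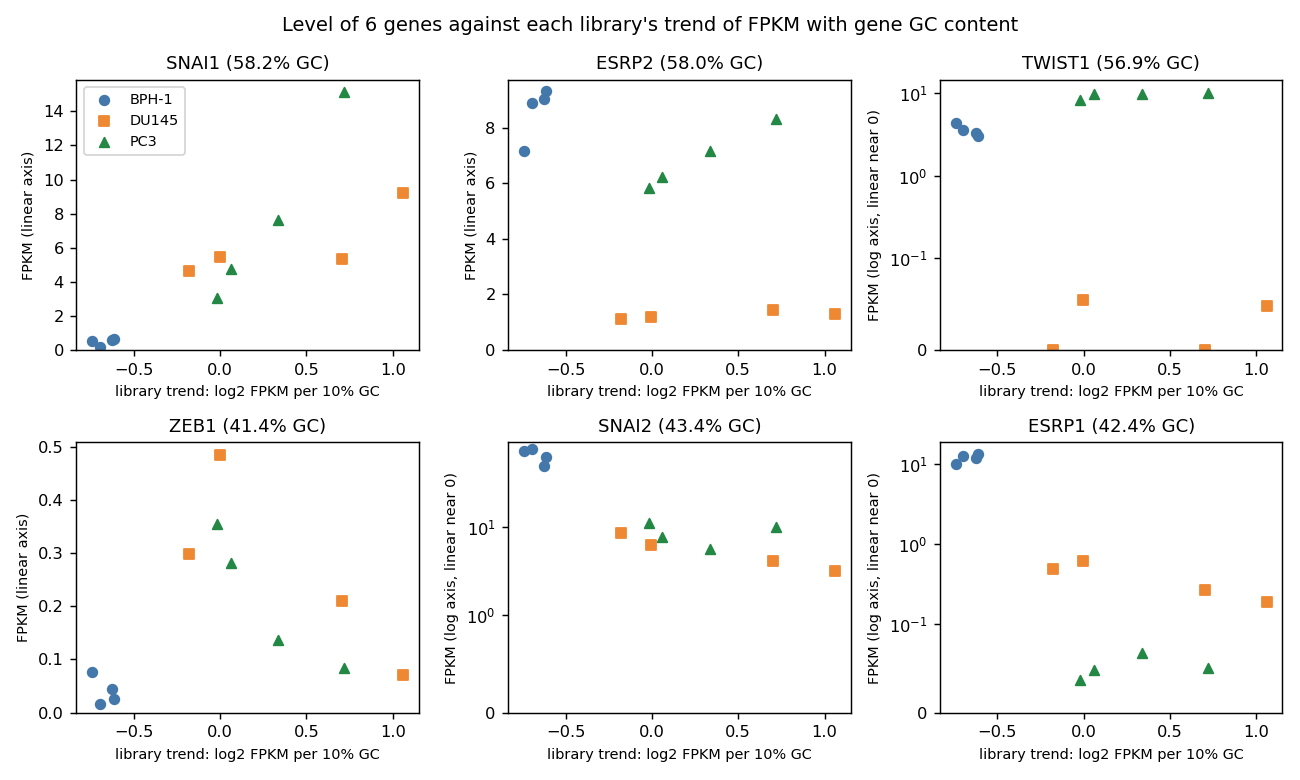
FPKM of 6 genes (y axes, linear or logarithmic as marked) against the change of log2 FPKM per 10% gene GC content in each library (x axis), for BPH-1 (circles), DU145 (squares) and PC3 (triangles). BPH-1 libraries lie at -0.61 or below, and within PC3 SNAI1 is highest and ZEB1 lowest in the library at 0.72.

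For VIM, ZEB1 and ESRP1, the genes of most similar level over the 12 libraries were found by Pearson's r of log2(FPKM + 1) among 14232 genes. The libraries fall into 3 lines and share the GC trend, so r describes the pattern over lines and carries no p. For VIM they were PRRT3-AS1 and CRTAP (r = 0.995 each) and RNF157 (0.993). RNF157 had a mean FPKM of 0.0228 in BPH-1, 4.32 in DU145 and 5.76 in PC3, the same order as VIM. For ESRP1 they were DGKH (0.996), TRIML2 and MPZL2 (0.995 each). MPZL2, an epithelial adhesion gene, had 21.4 in BPH-1, 0.578 in DU145 and 0.192 in PC3. For ZEB1 the likeness was lower, with NBPF12 (0.949), RMDN1 (0.943) and DENND5B (0.926).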

How the data were processed

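Total RNA of 3 lines, extracted with TRIzol, was sequenced as 12 NEB Ultra libraries. Per the labels, the authors used CASAVA 1.8, HISAT2 2.1.0 and edgeR on GRCh38; the annotation, the counting program, the use of strand and any filter are not given in the sources used here. The deposited table held normalized values of 58302 genes, which had the form of FPKM; its header names no unit. Reads were recovered as FPKM × length × depth with GENCODE 29 lengths (the sum of distinct exons), and 95.8% to 96.5% of values of up to 50 reads came out whole within 0.02 reads, against 15.3% to 18.1% with merged exons. Lengths of 4 members (GRHL2, ZEB2, ESRP1 and SNAI2) were taken from the steps of their values, which sets their reads and not their FPKM. On simulated data the depth was recovered to within 1.8e-05 percent.

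Each pair of lines was compared by limma (version 3.58.1, R 4.3.3, trend over intensity) on log2(FPKM + 1). A gene was tested if 4 libraries reached 10 reads, scaled to the median depth, and its total reached 15. On simulated data with 200 changed genes, 97%, 96% and 94% were recovered for PC3 against BPH-1 (16346 genes), for DU145 against BPH-1 (17072) and for PC3 against DU145 (16209), with 11, 8 and 9 unchanged genes called. The changes were set only in genes with a mean of 50 reads or more, with a fixed spread between libraries and no GC trend. These rates therefore do not cover genes as low as ZEB1 and ZEB2 in BPH-1, nor the GC trends of these libraries. The GC trend of each library was fitted by a 5-degree spline on genes that reached 50 reads. In a simulation of such a trend, dividing it out took calls among 16333 unchanged genes from 5673 to 0, and it would also remove a real difference that follows GC content. Other alternatives were filters, pseudocounts, scalings, a replicate block, voom on the recovered reads, exact permutation tests, leaving out each library and, chosen after seeing the data, pairs of DU145 libraries. Libraries of a line differed by more than counting noise (chi-square per gene between 15.9 and 194 over 18 pairs), so none was a duplicate. Python 3.11.15, numpy 2.4.6, pandas 2.3.3, scipy 1.17.1 and matplotlib 3.10.9 were used.

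The members and gene lists were chosen with earlier results of these data known. Named in each list were the 4 genes of largest log2 difference among those called with a mean FPKM of at least 1 in a line, and for VIM, ZEB1 and ESRP1 the 3 genes of highest r. Some genes that the lists or this rule include are not reported here by name.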

Additional observations from a re-analysis of the deposited data

Results flagged for a closer look

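In 30 groups of 4 libraries (10 genes in 3 lines), 1 library stood apart by Dixon's ratio at the 95% level, where chance flags about 1 group in 20 (5%). It was OVOL1 in DU145 replicate 3, at 0.0501 FPKM from 4 reads, where the other 3 libraries of DU145 had none. With 3 libraries at 0, any read in the remaining library gives this flag, so it is not read as a result. The 5% holds for normally distributed values and not for groups of a few reads.

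The difference of PC3 against DU145 is also the difference between the changes of the 2 cancer lines from BPH-1. Of the 8 members tested there by limma, 4 were called, where 48.2% of 16209 genes were. That count is near the share and is not read as a result about the members. TWIST1 and ESRP1 entered that test through 1 line alone, so their calls are not read as support. The difference in log2(FPKM + 1) was 3.34 for TWIST1, 1.8 for ESRP2, 0.95 for VIM and -0.39 for ESRP1. TWIST1 changed in opposite directions, higher than BPH-1 in PC3 and lower in DU145, and each line lay apart from the others in all 4 libraries. VIM rose in both and more in PC3. ESRP1 fell in both and further in PC3. ESRP2 fell in DU145, and its difference from BPH-1 in PC3 depended on the processing.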

How the results depend on the processing

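Depth limits GRHL2, OVOL1 and TWIST1 in DU145 to a few reads, and ZEB1 and ZEB2 to under 131 reads in every library. In the order PC3 and then DU145 against BPH-1, and last PC3 against DU145, member calls numbered 3, 4 and 2 under the stricter filter, which tested only 4, 4 and 5 members, and 2 in PC3 against DU145 with an absolute log2 difference over 1. That rule also took the genes called from 11058 to 4424, from 10691 to 4895 and from 7820 to 3165, and the stricter filter gave 5211 in PC3 against DU145, with fewer genes tested. Leaving out each library in turn gave 8 to 9, 9 to 9 and 4 to 5 members, and 10485 to 11320, 9635 to 11490 and 6939 to 8137 genes. Among the members, signs turned only for uncalled differences. ZEB2 in DU145 against BPH-1 was -0.11 with voom and from -0.0046 to 0.038 over the libraries left out (lowest without DU145 replicate 2). In PC3 against DU145, SNAI1 ranged from -0.25 (without PC3 replicate 4) to 0.41 and was -0.10 with DU145 replicates 3 and 4 only, and ZEB1 ranged from -0.13 to 0.025 (without DU145 replicate 4). The cause was not tested.

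Replicate numbers did not pair the samples: same-numbered libraries correlated between -0.65 and 0.51 in their deviations from the line means. With the replicate number as a block, 8, 9 and 4 members and 10711, 10156 and 6654 genes were called. Rescaling FPKM to the same sum lowered the median difference of all genes by 0.15 in PC3 and by 0.13 in DU145 against BPH-1, and no member changed direction under any scaling.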
